A study of Mus musculus with 12 samples.

Results

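The genes described here encode the nuclear subunits of the mitochondrial respiratory chain and the ATP synthase. They were chosen by symbol: rows starting Ndufa, Ndufb, Ndufc, Ndufs, Ndufv, Uqcr, Cox4 to Cox8 or Atp5, plus Sdha, Sdhb, Sdhc, Sdhd and Cyc1, without Ndufaf assembly factors and pseudogene symbols. This gave 91 of the 40840 gene rows: 41 for complex I, 4 for complex II, 9 for complex III, 20 for complex IV and 17 for the ATP synthase (complex V). Ndufa4 and Ndufa4l2 were counted with complex IV, where the Ndufa4 protein resides. For subunits encoded by the mitochondrial genome, symbols starting mt-Nd, mt-Co, mt-Atp or mt-Cytb matched 0 rows. Other symbols for these subunits were not searched, and they are not analysed here.

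All 12 libraries were made from OTII CD4+ T cells, which carry a transgenic T cell receptor for an ovalbumin peptide. The donor cells were transferred into WT or Il6-/- mice, so the genotype is that of the recipient and every sorted population came from OTII donors. All recipients were sensitized through the nose with house dust mite (HDM) extract containing endotoxin (LPS) together with ovalbumin, and OTII cells were sorted from the mediastinal lymph nodes on Day 3 or Day 5 by congenic marker, CD4 and CD44. There were 3 libraries in each of the 4 groups: WT Day 3, Il6-/- Day 3, WT Day 5 and Il6-/- Day 5. The sample labels name blood as the tissue, whereas the design text and methods name the lymph nodes. The labels do not say that replicates came from separate mice, so the p-values below measure the spread between these libraries, which may be partly technical.

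The respiratory chain passes electrons from NADH through complex I, or from succinate through complex II, to coenzyme Q, then through complex III and cytochrome c to oxygen at complex IV. Complexes I, III and IV pump protons out of the matrix, and the ATP synthase uses their return to make ATP. The catalytic and electron-carrying proteins are few and mostly large, and each complex also holds many small accessory subunits that are needed for assembly and stability. Activated CD4+ T cells enlarge their mitochondria as they leave quiescence and divide.

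Reads counted on genes ranged from 16125947 to 26111657 per library. A further 11.7% to 12.9% of reads on Day 3 and 15.2% to 17.3% on Day 5 lay outside annotated genes. The T cell markers Cd3e, Cd3g, Cd3d, Cd4, Lck and Cd44 were all tested and summed to between 4636 and 8267 CPM (counts scaled to a common library size). The 6 B cell markers summed to at most 16.6 CPM and the 8 myeloid and dendritic markers to at most 52.8 CPM. Cd8b1 was present at a mean of 62.7 to 74.7 CPM in the 4 groups while Cd8a did not exceed a group mean of 1.04 CPM. The summed T cell markers were 4636 to 5307 CPM on Day 3 and 7061 to 8267 CPM on Day 5, and the part of this difference in the results between days was not tested. In bulk samples, fewer cells of a type and less RNA per cell cannot be told apart. No replicate pair matched within sampling noise. WT Day 5 replicate 3 stood apart from the other WT Day 5 libraries in the small subunits and was the lowest of the 3 for 60 of the 82 subunits tested. For the comparisons that use WT Day 5 replicate 3, counts of called subunits are also given without it. Il6-/- Day 5 replicate 2 also stood apart from its group, with the mitochondrial ribosomal RNA mt-Rnr2 at 12771 CPM against 18819 and 15731 CPM. Leaving it out is reported below as well.

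Of the 91 genes, 82 had enough reads to be tested. The 9 that did not were Cox4i2, Cox6a2, Cox7a1, Cox7b2, Cox8b and Cox8c, isoforms known mainly from lung, muscle or testis, together with Ndufa4l2, Ndufa11b and Ndufs6b. Cox7b2 and Cox8c had 0 reads in every library, Cox4i2 had at most 11 reads, Cox7a1 at most 15 and Ndufa4l2 at most 6. In 16125947 reads, the smallest library, a count of 0 allows up to 3 reads, counting error only. The cells therefore carried reads for the widely expressed forms Cox4i1, Cox6a1, Cox7a2 and Cox8a, at a mean of 677.9 CPM for Cox4i1 over all 12 libraries.

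Levels of different genes were compared as CPM per kilobase of the annotated transcript, which can be longer than the form used in T cells. On that scale the highest subunit was Atp5b, the catalytic beta subunit of the ATP synthase, at 1108 CPM per kilobase. The highest of complex IV was Cox6c (884) and the highest of complex III was Uqcr10 (755), both small membrane subunits. The highest of complex I was the accessory subunit Ndufa3 (631) and the highest of complex II was the membrane anchor Sdhd (187). At the low end stood Sdhc (29.1), the other complex II anchor, Uqcrc2 (76.3), a core protein of complex III, and Atp5mpl (71.7), a small protein associated with the ATP synthase membrane sector. The lowest tested genes of complexes I and IV were the gene copy Ndufb4c (1.76) and Cox6b2 (1.38), a form known from testis. Comparisons between samples below use CPM.

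Reads can be lost or shared where genes resemble or overlap each other. Of the 91 genes, 27 had exons overlapping another counted gene and 25 had at least 10% of their transcript 50-base stretches copied elsewhere in the genome. Only reads with a single position were counted, without regard to strand. The 41 tested genes free of both are given as a separate count beside each result.

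The 91 genes together took 2.39%, 2.46% and 2.54% of gene reads in the WT Day 3 libraries and 2.62%, 2.74% and 2.63% in the Il6-/- Day 3 libraries. On Day 5 they took 2.18%, 2.29% and 2.09% in WT and 2.01%, 2.11% and 2.20% in Il6-/-. The Il6-/- Day 3 libraries were thus the highest of the 12, and the Day 5 groups overlapped. The 20 catalytic and electron-carrying subunits made up 38.4% to 40.2% of the summed subunit CPM in the 6 Day 3 libraries, 28.8% to 32.1% in WT Day 5 and 32.5% to 36.3% in Il6-/- Day 5. This set is the complex I core, complex II, the electron-carrying and core proteins of complex III and the F1 head of the ATP synthase. It is named loosely, as it also holds the core proteins Uqcrc1 and Uqcrc2 and the F1 head subunits Atp5c1, Atp5d and Atp5e.

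**Figure D1:**
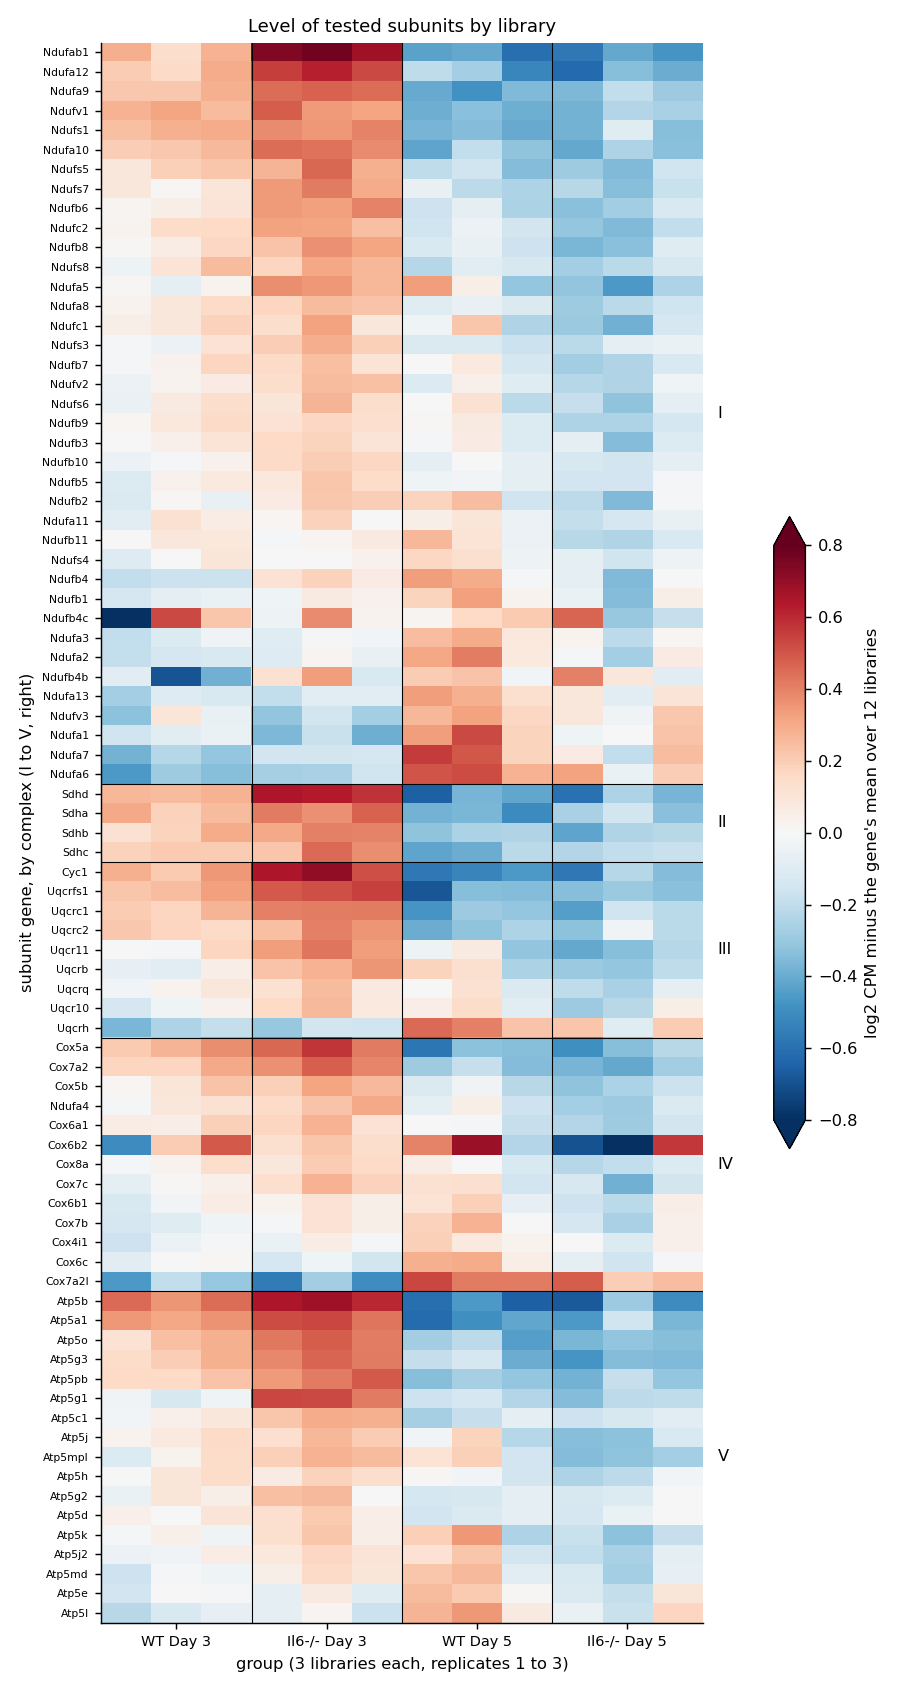
Each row is 1 of 81 tested subunit genes, grouped by complex I to V, and each column 1 of the 12 libraries; colour gives log2 CPM minus the gene's own mean over the 12 libraries, from blue (lower) to red (higher), with values beyond 0.8 in either direction drawn in the end colours. Most rows are reddest in the 3 Il6-/- Day 3 columns, and a smaller set with Ndufa6, Ndufa7, Uqcrh and Cox7a2l is reddest in WT Day 5.

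On Day 3, 11 of the 82 subunits were higher in cells from Il6-/- than from WT recipients and 0 were lower, by edgeR's quasi-likelihood test at a false discovery rate (FDR) under 0.05 over all 13570 genes tested. Over all those genes 7.52% were called higher and 6.19% lower. The differences were small: the median log2 fold change of the subunits was 0.15, against 0.01 for all genes, and no subunit reached 2-fold. The 3 Il6-/- libraries lay above the 3 WT libraries for 49 subunits and below for 1, against 20.5% and 15.7% of all genes. At an unadjusted p under 0.05, 32 subunits were higher and 0 lower, and neither DESeq2 nor limma-voom called any lower.

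The largest difference was in Atp5g1, 1 of 3 genes that encode the proton-carrying c subunit of the ATP synthase ring. Atp5g1 (ENSMUSG00000006057, GRCm39 chromosome 11, 95959678 to 95966757, minus strand) stood at 302, 281 and 300 CPM in WT Day 3 and at 446, 443 and 411 CPM in Il6-/- Day 3. The groups did not overlap, and the log2 fold change was 0.56 ± 0.07 (SE, edgeR, FDR 0.000168). The call held in 12 of 12 other scalings, filters and models and in 12 of 12 leave-outs, at a size below 2-fold. Atp5g2 stood at 149, 165 and 160 CPM in WT and 182, 185 and 154 CPM in Il6-/-, and Atp5g3 at 706, 731 and 778 against 832, 879 and 851 CPM. Neither passed the test, at 0.14 ± 0.08 (FDR 0.309) and 0.21 ± 0.08 (FDR 0.0844). Because the 3 genes encode the same mature protein, it matters whether their reads can be told apart. The last 75 coding bases, up to the stop codon, are shown in GRCm39 on the coding strand, with capitals where a base differs from Atp5g1.
Atp5g1, chr11:95963930-95964004, minus strand: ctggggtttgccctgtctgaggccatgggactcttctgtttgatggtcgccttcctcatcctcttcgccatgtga
Atp5g2, chr15:102571449-102571523, minus strand: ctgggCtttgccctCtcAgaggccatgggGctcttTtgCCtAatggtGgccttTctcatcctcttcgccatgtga
Atp5g3, chr2:73738937-73739011, minus strand: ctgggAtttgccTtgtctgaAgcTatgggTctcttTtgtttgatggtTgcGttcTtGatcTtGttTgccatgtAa
In this stretch Atp5g2 differs from Atp5g1 at 10 bases and Atp5g3 at 14, and over the last 76 codons they are 85.1% and 79.8% identical to it. The 3 genes are thus distinct in sequence from each other, but 84.4% of the 50-base stretches of the Atp5g1 transcript and 88.4% of those of Atp5g2 also occur elsewhere in the genome, against 0% for Atp5g3. The counts of the first 2 therefore rest on the part of the transcript that is unique.

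The second largest difference was in Ndufab1, the mitochondrial acyl carrier protein that is also an accessory subunit of complex I. Ndufab1 stood at 193, 174 and 191 CPM in WT Day 3 and 263, 269 and 252 CPM in Il6-/- Day 3, with no overlap (log2 fold change 0.49 ± 0.08, edgeR FDR 0.000839). Among the other complex I subunits, Ndufs7, which holds an iron-sulfur cluster next to the coenzyme Q site, was higher by 0.29 ± 0.08 (FDR 0.0223), and the accessory subunits Ndufa12 and Ndufb6 by 0.35 and 0.30. The remaining 6 tested core subunits of complex I did not pass, among them Ndufs1 at 0.10 ± 0.08 and Ndufv1, which binds NADH, at 0.10 ± 0.07.

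In complex II, Sdhd stood at 269, 266 and 271 CPM in WT and 350, 347 and 333 CPM in Il6-/- (0.35 ± 0.09, edgeR FDR 0.0185). The flavoprotein Sdha, the iron-sulfur protein Sdhb and the anchor Sdhc did not pass, at 0.17, 0.17 and 0.15, although the libraries of the 2 genotypes were apart for all 4 genes. In complex III, Cyc1, the cytochrome c1 that hands electrons to cytochrome c, stood at 273, 258 and 284 CPM against 350, 366 and 319 CPM (0.35 ± 0.09, FDR 0.0176). The small subunits Uqcrb and Uqcr11 were higher by 0.32 and 0.31, and the Rieske protein Uqcrfs1 (0.25, FDR 0.0706) and the core protein Uqcrc1 (0.19, FDR 0.122) did not pass. In the ATP synthase, the gamma subunit Atp5c1 and the stalk subunit Atp5pb were each higher by 0.23, and the catalytic Atp5a1 and Atp5b did not pass, at 0.16 and 0.22. By edgeR 0 of the 13 tested complex IV genes were called in either direction, and at an unadjusted p under 0.05, 3 were higher and 0 lower.

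The count on Day 3 rested on all 6 libraries compared. Leaving out WT Day 3 replicates 1, 2 or 3 left 5, 2 and 6 calls, against 6.15%, 3.39% and 4.42% of all genes. Leaving out Il6-/- Day 3 replicates 1, 2 or 3 left 2, 3 and 6, against 3.88%, 4.41% and 5.65%. The B cell markers summed to 6.55 to 8.69 CPM in WT and 13.7 to 14.6 CPM in Il6-/- on Day 3, and the 4 CD8 and natural killer cell markers to 62.2 to 74.0 and 82.8 to 112 CPM, with no overlap in either, and their part in the result was not tested. Single markers of these lists went different ways: from WT to Il6-/- the group mean of Cd22 went from 0.778 to 6.61 CPM and that of Klrb1c from 4.82 to 20.9 CPM, while Pax5 was at 0.841 and 0.171 CPM and Cd79a at 0.712 and 0.776 CPM. Among the 41 genes free of copies and overlap 2 were called, and with total-count scaling 5 of the 82, against 5.18% of all genes.

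**Figure D2:**
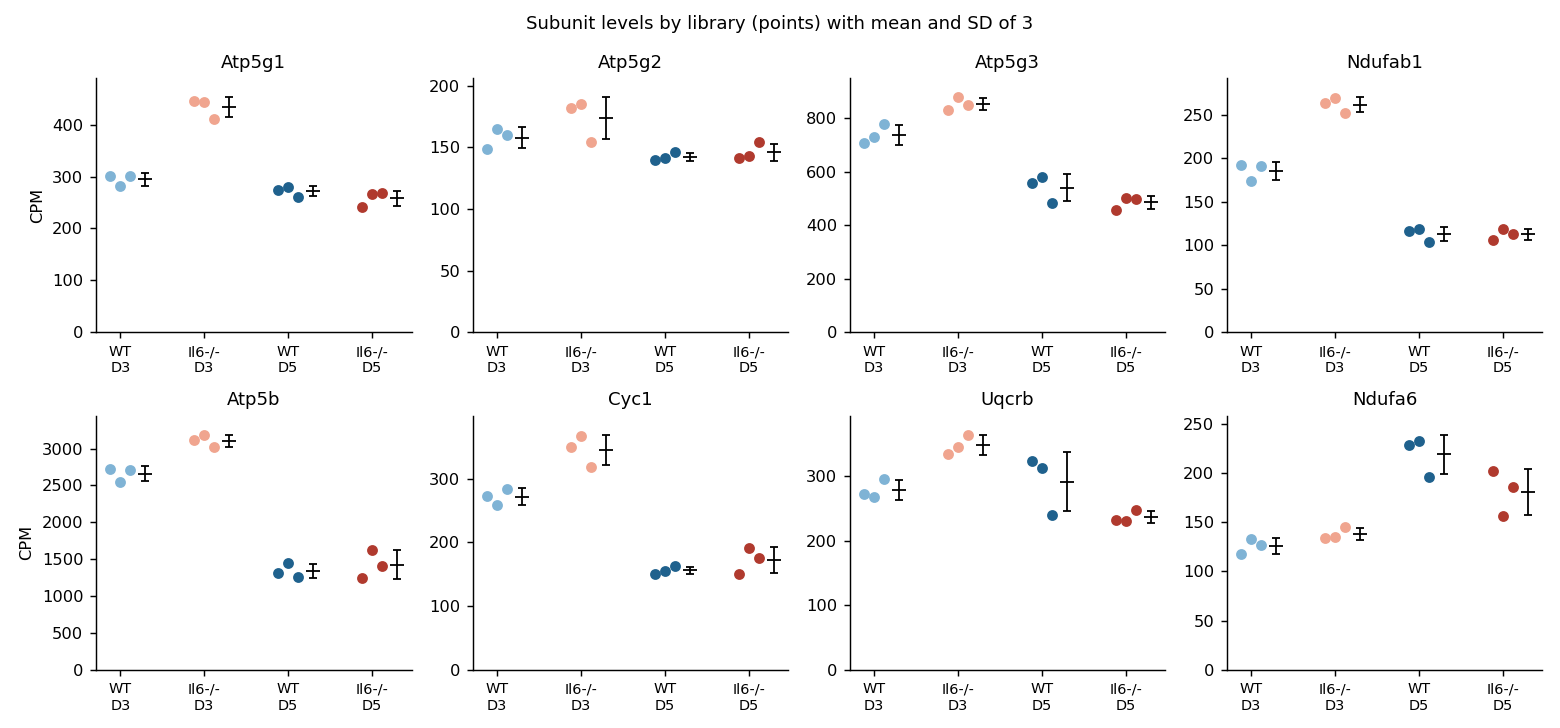
Points give the CPM of 8 subunit genes in each of the 12 libraries by group (D3, Day 3; D5, Day 5), beside the mean with its SD over 3 libraries; every axis starts at 0. Atp5g1 and Ndufab1 are highest in the 3 Il6-/- Day 3 libraries, and Uqcrb in WT Day 5 replicate 3 sits near the Il6-/- Day 5 points.

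On Day 5, 0 of the 82 subunits were higher in cells from Il6-/- recipients and 3 were lower, against 1.27% and 3.35% of all genes. The count of lower subunits was thus close to the share over all genes and does not set the subunits apart. The median log2 fold change was -0.15, with 20 subunits above 0 and 62 below. The Il6-/- libraries lay above WT for 2 subunits and below for 11, against 8.65% and 11.0% of all genes, so the count below was also near its share. At an unadjusted p under 0.05, 2 subunits were higher and 32 lower, and DESeq2 and limma-voom called 0 higher. Among the 41 genes free of copies and overlap 0 were called, 1 being higher and 14 lower at an unadjusted p under 0.05.

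The 3 lower genes were Atp5mpl, Ndufb11 and Cox6c, all small membrane subunits. Atp5mpl stood at 220, 232 and 183 CPM in WT Day 5 and at 161, 163 and 169 CPM in Il6-/- Day 5 (-0.37 ± 0.09, edgeR FDR 0.0338). Ndufb11, an accessory subunit of the complex I membrane arm, stood at 227, 204 and 183 against 162, 160 and 173 CPM (-0.31 ± 0.08, FDR 0.0421). Cox6c stood at 539, 543 and 459 against 420, 396 and 439 CPM (-0.30 ± 0.08, FDR 0.0432). In all 3 the groups did not overlap, and WT replicate 3 was the lowest of the WT libraries.

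The same library was the lowest of its group for 44 of the 48 tested subunits with a coding length under 500 bases. Without WT Day 5 replicate 3, 19 subunits were lower, where 5.47% of all genes were. Leaving out WT Day 5 replicate 1 or 2, WT Day 3 replicate 2, Il6-/- Day 3 replicate 2 or 3 or Il6-/- Day 5 replicate 2 left 0, and leaving out WT Day 3 replicate 3, Il6-/- Day 3 replicate 1 or Il6-/- Day 5 replicate 1 or 3 left 1. Same-numbered Day 5 libraries deviated together, and with the replicate number as a block 11 subunits were lower (6.30% of all genes): Atp5md, Atp5mpl, Cox6c, Ndufa2, Ndufa3, Ndufa5, Ndufa7, Ndufb11, Ndufb4, Uqcrb and Uqcrh. The summed mitochondrial tRNA rows were 720 and 755 CPM in WT Day 5 replicates 1 and 2, 375 CPM in replicate 3 and 435, 280 and 370 CPM in Il6-/- Day 5, so they followed the same division of libraries. The part of this in the result was not tested.

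The Day 5 differences ran with the size of the protein. The 18 tested subunits with a coding length under 300 bases had a median log2 fold change of -0.27, the 30 of 300 to 500 bases -0.16, the 20 of 500 to 1000 bases -0.06 and the 12 of 1000 bases and more 0.10. Over all genes tested the medians of the same classes were -0.15, -0.10, -0.01 and 0.04. Across the 80 subunits with a coding length, Spearman's rho between length and fold change was 0.77 on Day 5 and 0.15 on Day 3, given as a description, since the points share the same 6 libraries on each day. All 4 electron-carrying and core proteins of complex III (Uqcrc1, Uqcrc2, Uqcrfs1 and Cyc1) lay between 0.09 and 0.15 and all 5 small ones between -0.30 and -0.18. None of these 9 passed the test. Whether read loss along the transcript or the length of the RNA fragments plays a part was not tested, and a correction for transcript length moved the median of all subunits from -0.15 to -0.07.

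**Figure D3:**
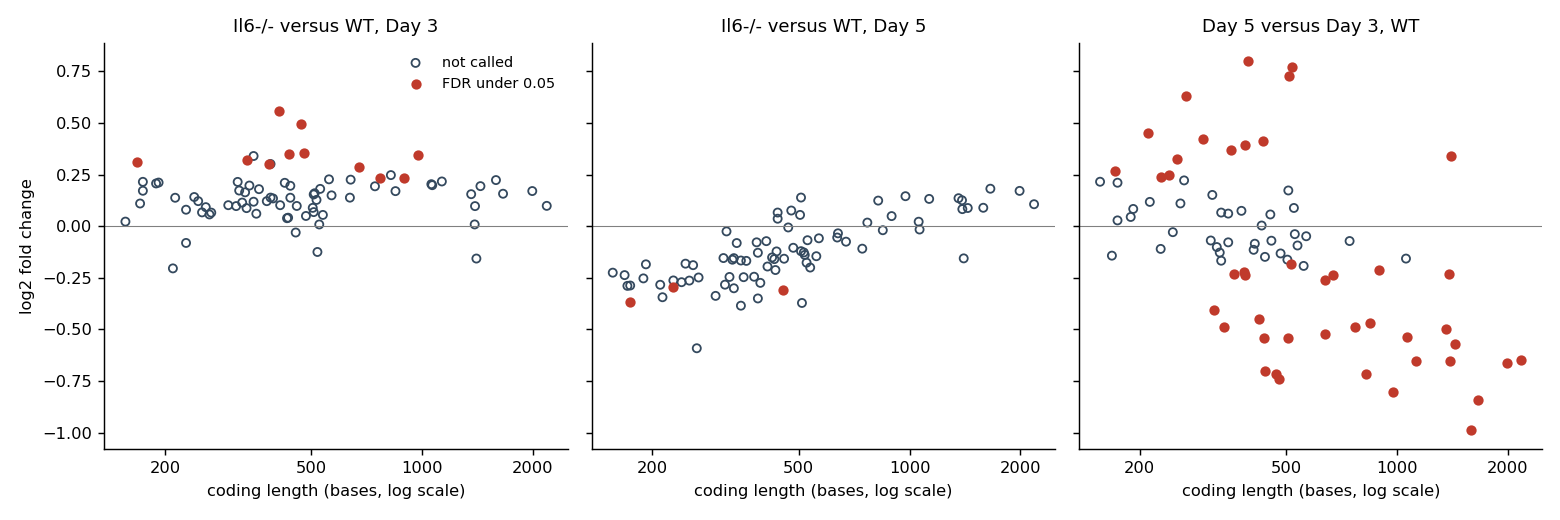
Log2 fold change of the subunits (vertical axis) against coding length in bases (log scale), for Il6-/- versus WT on Day 3 (left) and Day 5 (middle) and for Day 5 versus Day 3 in WT (right); filled points have an FDR under 0.05. The middle panel slopes upwards from small to large subunits, the left panel has no clear slope, and the right panel slopes downwards.

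The difference between genotypes itself differed between the days for 7 subunits. In the interaction (Il6-/- versus WT on Day 3 minus the same on Day 5), 7 of 82 were called higher and 0 lower, against 3.12% and 1.80% of all genes, and the median was 0.27. At an unadjusted p under 0.05 the counts were 46 and 0, and DESeq2 and limma-voom called 0 lower. The 7 were Atp5g1 (0.63 ± 0.10, edgeR FDR 0.00501), Uqcrb (0.62), Atp5mpl (0.58), Ndufab1 (0.50), Ndufb4 (0.65), Ndufa5 (0.72) and Uqcr11 (0.55). On Day 5 the differences of these 7 genes lay between -0.38 and -0.01, and the groups overlapped for all but Atp5mpl.

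Uqcrb, a small subunit of complex III, shows the pattern. It stood at 272, 268 and 296 CPM in WT Day 3 and 334, 345 and 364 CPM in Il6-/- Day 3, and at 323, 312 and 239 CPM in WT Day 5 and 233, 230 and 247 CPM in Il6-/- Day 5. The Il6-/- libraries were the higher ones on Day 3, while on Day 5 the groups overlapped through WT replicate 3. Ndufa5, an accessory subunit of the complex I matrix arm, stood at 105, 98.9 and 106 against 135, 132 and 125 CPM on Day 3 and at 132, 108 and 84.2 against 83.7, 75.9 and 87.9 CPM on Day 5. Of these 7 genes Uqcrb and Atp5g1 have more than 50% of their transcript copied elsewhere. By edgeR and limma-voom 0 of the 20 catalytic and electron-carrying subunits were called in the interaction, by DESeq2 1, and 2 were higher at an unadjusted p under 0.05. The count was 21 without WT Day 5 replicate 3 (4.94% of all genes) and 12 without Il6-/- Day 5 replicate 3 (2.03%). It was 1 without WT Day 3 replicate 2, WT Day 5 replicate 1 or 2 or Il6-/- Day 3 replicate 2, 3 without Il6-/- Day 3 replicate 1 and 4 without WT Day 3 replicate 3 or Il6-/- Day 5 replicate 2. Atp5g1 kept its call in all of them. Among the 41 genes free of copies and overlap 1 was called.

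Between Day 3 and Day 5 in WT recipients, 14 of the 82 subunits rose and 30 fell, against 29.5% and 27.1% of all genes, and the Day 5 libraries lay above Day 3 for 17 subunits and below for 36, against 33.4% and 29.9%. Of the 20 catalytic and electron-carrying subunits 16 fell and 0 rose, with a median log2 fold change of -0.52. Of the 59 other subunits 14 rose and 14 fell, with a median of -0.04. The isoform Cox6b2 and the gene copies Ndufb4b and Ndufb4c are in neither set. At an unadjusted p under 0.05, 1 of the 20 was higher, and limma-voom called 1 of them higher and DESeq2 0. The median over all genes was 0.09. Leaving out WT Day 5 replicate 3, 1 of the 20 catalytic and electron-carrying subunits rose and 15 fell. Of the 59 other subunits 18 then rose and 11 fell, so their even split did not hold without this library.

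The largest falls were in the F1 head of the ATP synthase. Atp5b stood at 2726, 2540 and 2715 CPM on Day 3 and 1311, 1449 and 1263 CPM on Day 5, a log2 fold change of -0.99 ± 0.09 (edgeR FDR 2.26e-07). Atp5a1, the alpha subunit that forms the head together with beta, stood at 1543, 1506 and 1554 against 794, 865 and 911 CPM (-0.84 ± 0.08, FDR 4.57e-07). The head's small subunits did not follow, since Atp5d was at -0.16 and Atp5e at 0.22, neither passing the test. For both large subunits no Day 5 library reached a Day 3 library.

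All 4 subunits of complex II fell: Sdha by 0.66, Sdhb by 0.47, Sdhc by 0.54 and Sdhd by 0.74 on the log2 scale. Sdha, which also serves the tricarboxylic acid (TCA) cycle as succinate dehydrogenase, went from 629, 578 and 606 CPM to 392, 394 and 358 CPM (FDR 1.91e-06). The 4 electron-carrying and core proteins of complex III fell as well, Cyc1 from 273, 258 and 284 CPM to 150, 155 and 162 CPM (-0.80 ± 0.09, FDR 2.47e-06), Uqcrfs1 by 0.72, Uqcrc1 by 0.57 and Uqcrc2 by 0.50. Of the 7 core subunits of complex I 5 fell, led by Ndufv1 and Ndufs1, each by 0.65. Ndufs3 and Ndufv2 did not pass, at -0.16 and -0.07. In complex IV, Cox5a fell by 0.70, Cox7a2 by 0.49 and Cox5b by 0.24, while Cox4i1 (0.17, FDR 0.0522), Cox6a1 (-0.17), Cox8a (-0.07) and Ndufa4 (-0.13) did not pass. The accessory subunits Ndufab1 and Ndufa9 of complex I fell by 0.72 and 0.65.

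The subunits that rose were mostly small. Of the 14, 9 belong to complex I, which holds 41 of the 91 genes, and 29.5% of all genes rose. Ndufa6, an accessory subunit of the matrix arm, went from 117, 133 and 127 CPM to 228, 232 and 196 CPM (0.80 ± 0.10, edgeR FDR 6.37e-06). Ndufa7 and Ndufa13, other accessory subunits of complex I, rose by 0.73 and 0.41 and Uqcrh, the acidic hinge protein of complex III, by 0.63. Cox7a2l, described as a supercomplex assembly factor, went from 94.9, 114 and 106 CPM to 189, 174 and 174 CPM (0.77 ± 0.10, edgeR FDR 1.09e-05). Whether the form in these mice has that function was not tested, and supercomplexes were not measured. The Day 5 libraries of Cox7a2l all lay above its Day 3 libraries, and 46.8% of its transcript is copied elsewhere. Among the 41 genes free of copies and overlap, 6 rose and 16 fell.

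Over the subunits, rho between coding length and the change in WT was -0.59. The 18 subunits with a coding length under 300 bases had a median of 0.21 and the 12 of 1000 bases and more a median of -0.61, against 0.35 and -0.02 over all genes in those classes. With a correction for transcript length, 7 subunits rose and 52 fell, and the rises of Atp5l, Cox6c, Cox7b, Ndufa1, Ndufa2, Ndufa3 and Ndufb1 turned negative, while those of Ndufa6, Ndufa7, Uqcrh and Cox7a2l and the falls named above kept their direction and their call. Upper-quartile scaling moved the median of all genes from 0.09 to 0.29, and with it 28 subunits rose and 21 fell. The even split of the 59 other subunits (14 rose and 14 fell) held under neither, as 7 rose and 33 fell with the length correction and 26 rose and 9 fell with upper-quartile scaling, while of the 20 catalytic and electron-carrying subunits 0 rose and 19 fell, and 1 rose and 12 fell. Role and coding length mostly go together in these genes, though the accessory Ndufa9 has 1131 coding bases and the complex II subunit Sdhd 477. The separate parts of role and length in the changes were not tested.

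**Figure D4:**
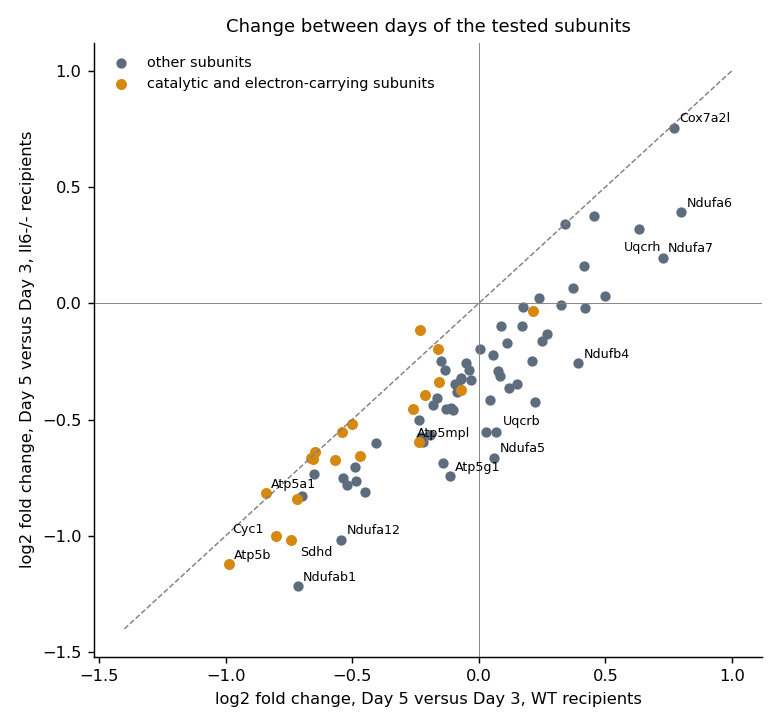
Log2 fold change of each of the 82 subunits between Day 3 and Day 5 in WT (horizontal axis) and Il6-/- recipients (vertical axis); orange points are the 20 catalytic and electron-carrying subunits and the dashed line marks equal change. Most points lie below the line, with Atp5g1, Uqcrb and Ndufa5 well below it and Atp5a1 and Cox7a2l close to it.

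In Il6-/- recipients the fall was broader. Between the days 61 of the 82 subunits fell and 5 rose, against 30.1% and 30.4% of all genes, with a median of -0.39. The Day 5 libraries lay below Day 3 for 63 and above for 6, against 32.7% and 33.1%. Leaving out Il6-/- Day 5 replicate 2, 17 of the 20 catalytic and electron-carrying subunits fell and 0 rose, against 18 and 0 with it. Of the 59 other subunits 37 then fell and 7 rose, against 43 and 5 with it. By at least 2-fold, 5 subunits fell, against 11.4% of all genes: Ndufab1 (-1.22 ± 0.08, edgeR FDR 1.62e-08), Atp5b (-1.12), Sdhd (-1.02), Ndufa12 (-1.02) and Cyc1. Ndufab1 went from 263, 269 and 252 CPM to 106, 119 and 113 CPM, with no overlap. Of the 30 subunits that fell in WT, 29 also fell in Il6-/- (96.7% of the first list, 47.5% of the second), and all 5 that rose in Il6-/- (Cox7a2l, Ndufa6, Ndufa1, Uqcrh and Ndufv3) were among the 14 that rose in WT.

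Atp5a1 fell by 0.84 in WT and 0.82 in Il6-/-, and the 95% interval of the difference ran from -0.26 to 0.21. Atp5b fell by 0.99 and 1.12 (interval -0.12 to 0.39), and Ndufa10, an accessory subunit of complex I, by 0.54 and 0.75 (interval -0.01 to 0.44). The change was more negative in Il6-/- than in WT for 77 of the 82 subunits, a count fixed by the interaction given above. Among the subunits that fell in Il6-/- and did not pass in WT were Atp5g1 (-0.74 against -0.11), Uqcr11 (-0.69 against -0.14), Atp5mpl (-0.55 against 0.03), Cox8a (-0.33 against -0.07) and Cox6a1 (-0.41 against -0.17), and also the core complex I subunits Ndufs3 (-0.34 against -0.16) and Ndufv2 (-0.37 against -0.07) and the F1 head subunit Atp5d (-0.20 against -0.16). Of these 8, Atp5g1, Uqcr11 and Atp5mpl were called in the interaction. Upper-quartile scaling left 11 rising and 36 falling, against 41.4% and 22.3% of all genes. Total-count scaling moved the median from -0.39 to -0.24. Among the 41 genes free of copies and overlap, 4 rose and 29 fell.

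Other genes of mitochondrial respiration were taken from fixed lists. The list of TCA cycle enzymes also holds the pyruvate dehydrogenase genes Pdha1, Pdhb, Dlat and Pdhx. On Day 3, 10 of 30 genes for mitochondrial DNA expression, 6 of 48 assembly factors, 3 of 18 TCA cycle enzymes, 3 of 12 genes for mobile carriers and coenzyme Q synthesis and 1 of 10 biogenesis regulators were higher in Il6-/-, and 1 (Coq8a) was lower, where 7.52% and 6.19% of all genes were. The regulator was Pprc1, a coactivator of nuclear genes for mitochondria, at 46.7, 41.7 and 47.3 CPM in WT and 85.9, 67.0 and 79.0 CPM in Il6-/- (0.77, FDR 0.00184). Cycs, which encodes cytochrome c, was higher by 0.40 (FDR 0.0325). The transcription factors Nrf1 and Gabpa and the mitochondrial DNA packaging factor Tfam did not pass, at 0.02, 0.08 and -0.03. Nor did the mitochondrial RNA polymerase Polrmt (0.21), Ppargc1b (0.58) or Esrra (-0.07), and Ppargc1a was not tested. The ATP synthase inhibitor Atpif1 was at 0.18. The genes with the smallest p in the other lists were Ndufaf4 (0.75), Tmem70 (0.42) and Ndufaf6 (0.44), which assemble complexes I and V, Coq4 (0.86) and Coq7 (0.56) for coenzyme Q, and Tbrg4 (0.54), Fastkd3 (0.49) and Supv3l1 (0.37) for mitochondrial RNA.

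On Day 5 the assembly factors Sdhaf1 (-0.69), Pet100 (-0.49) and Ndufaf8 (-0.36) were lower in Il6-/-, and Fastkd5 (0.72) and Hcfc1 (0.37) were higher. Between the days in WT, 11 assembly factors rose and 21 fell, 2 genes for mitochondrial DNA expression rose and 16 fell, 3 regulators rose and 5 fell, and 1 gene for carriers and coenzyme Q rose and 7 fell, against 29.5% and 27.1% of all genes. In Il6-/- the same lists had 6, 2, 1 and 3 genes that rose and 30, 22, 6 and 9 that fell, against 30.4% and 30.1%. The assembly factor Uqcc3 rose by 0.99 in WT and Cmc1 by 1.10. Of the 18 genes on the TCA cycle list, pyruvate dehydrogenase included, 14 fell in WT and 16 in Il6-/-. On this list 0 rose in either (0 and 0 also at an unadjusted p under 0.05), and Fh1 and Idh3a fell by 1.11 and 1.17 in WT. Nrf1 went from 148, 162 and 156 CPM to 73.6, 88.5 and 85.6 CPM in WT (-0.91) and Gabpa fell by 0.94. Cycs fell by 1.02 in WT and 1.46 in Il6-/-, Pprc1 by 0.90 and 1.51 and Tfam by 0.52 and 0.46. In coenzyme Q synthesis Coq7 and Coq4 fell in WT, the latter by 1.35, while Coq8a rose by 1.68.

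The rows of the mitochondrial genome examined here are its 2 ribosomal RNAs and 22 tRNAs. Between the days mt-Rnr2 and many of the tRNA rows rose, but not all. The group mean of mt-Rnr1 went from 997 to 2171 CPM in WT and from 1000 to 1536 CPM in Il6-/-. The large ribosomal RNA mt-Rnr2 took 0.822%, 0.978% and 0.956% of gene reads in WT Day 3 and 2.12%, 1.93% and 1.87% in WT Day 5, and rose by 1.05 in WT and 0.89 in Il6-/- (edgeR FDR 2.09e-06 and 8.45e-06). Of 19 tested tRNA rows 14 rose in WT and 10 in Il6-/-, where 29.5% and 30.4% of all genes rose. Some were lower on Day 5: TrnY went from 37.5, 43.4 and 44.7 to 31.2, 28.3 and 30.0 CPM in WT. TrnL1 went from 9.56, 10.3 and 12.5 to 7.09, 6.86 and 6.40 CPM in Il6-/-. Poly(A) selection may not keep these RNAs evenly, so their counts can follow library preparation as well as abundance. Neither ribosomal RNA passed the test between genotypes on either day (mt-Rnr2 -0.14 on Day 3 and -0.30 on Day 5), and of the tRNA rows 3 were lower in Il6-/- on Day 5.

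**Figure D5:**
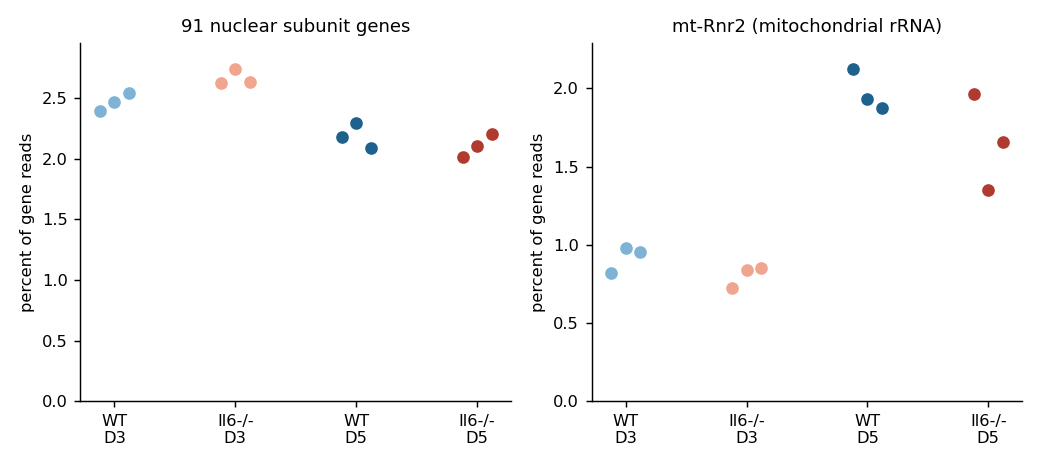
Percent of gene reads on the 91 nuclear subunit genes (left) and on mt-Rnr2 (right) in each of the 12 libraries, by group (D3, Day 3; D5, Day 5); both axes start at 0. The nuclear share is highest in Il6-/- Day 3, at 2.62% to 2.74%, and the mt-Rnr2 share is higher in all Day 5 than in all Day 3 libraries.

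Promoter sequence was examined because so many of the genes moved together. RefSeq windows of 250 bases before to 50 after the start (GRCm38.p6) were found for 71 of the 91 genes, using the first entry of each. The strings searched, on both strands, were GCGCATGCGC (the NRF1 site), CCGGAAG (an ETS site, the kind GABPA binds), TCAAGGTCA (the ERR site) and CCAAT, none of which contains another. The NRF1 string was in 5 of the 71 windows (7.04%), those of Atp5g2, Atp5k, Cox6a1, Ndufa11 and Uqcrc1, against 2.13% of windows of genes tested here and 0.977% of all windows. The ETS string was in 16 (22.5%, against 18.7% and 9.12%), the ERR string in 2 (2.82%, against 0.240% and 0.407%) and CCAAT in 30 (42.3%, against 39.2% and 37.9%). A match is a description and not a binding site. The windows of 3 genes are shown from 250 to 51 bases before the start, on the gene's strand with the ETS string in capitals in either orientation: Atp5b, which fell in both recipients, Uqcr11, called in the interaction, and Atp5e, called in no comparison.
Atp5b, chr10:128083057-128083256, plus strand: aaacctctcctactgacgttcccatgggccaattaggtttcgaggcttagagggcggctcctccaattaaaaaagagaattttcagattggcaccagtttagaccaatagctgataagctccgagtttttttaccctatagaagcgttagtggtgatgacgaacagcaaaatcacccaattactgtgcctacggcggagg
Uqcr11, chr10:80406872-80407071, minus strand: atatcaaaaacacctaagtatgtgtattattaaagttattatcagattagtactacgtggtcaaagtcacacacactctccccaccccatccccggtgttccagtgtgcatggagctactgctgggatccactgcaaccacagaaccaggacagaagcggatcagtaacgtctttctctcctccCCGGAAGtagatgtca
Atp5e, chr2:174464152-174464351, minus strand: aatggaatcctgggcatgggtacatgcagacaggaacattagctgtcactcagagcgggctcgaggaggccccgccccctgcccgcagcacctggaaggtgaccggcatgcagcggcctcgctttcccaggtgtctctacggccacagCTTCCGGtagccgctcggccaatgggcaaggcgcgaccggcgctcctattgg
The ETS string starts 66 bases before the start in Uqcr11 and 102 bases before it in Atp5e and is not in the Atp5b window.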

How the data were processed

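Per the labels and methods, poly(A) RNA from the sorted cells was sequenced from ultra-low input libraries. The submitters' processing notes and the methods name Trim Galore 0.4.4, STAR 2.5.2a on GRCm39 and HTSeq 0.6.1p1. The authors deposited raw counts of uniquely placed, unstranded reads per gene for each library. A deposited table of log2 CPM was not used. Counts were tested with edgeR 4.0.16 (quasi-likelihood, TMM, filterByExpr, R 4.3.3) in 1 fit of 4 groups over 13570 genes, with FDR under 0.05 as the call. CPM use TMM-scaled totals (factors 0.944 to 1.059). Fold changes are log2, with SE from the fit. The median biological coefficient of variation was 0.132. The test was tried on simulated counts. Alternatives were other scalings and filters, length and GC offsets, a replicate block, limma 3.58.1 (voom), DESeq2 1.42.0 and leaving out each library. Genes were located with GENCODE (GRCm39). The subunits, gene lists and tests were chosen with earlier results of these data known. Named are up to 5 subunits per direction and comparison by p, a fixed set of subunits and regulators, the highest and lowest level of each complex and up to 3 genes per other list. Same-numbered WT and Il6-/- libraries correlated at 0.13 to 0.24 on Day 5, above 0.1 in all 3 pairs, but not on Day 3 or between days. The calls and FDRs on Day 5 come from the fit without pairs, and the replicate block is an alternative. No label states what the numbers share.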

Additional observations from a re-analysis of the deposited data

Results flagged for a closer look

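The difference between Il6-/- and WT recipients changed between Day 3 and Day 5 for 7 subunits, each by edgeR's interaction test at an FDR under 0.05. The interaction, as log2 fold change on Day 3 minus that on Day 5, was 0.63 for Atp5g1, 0.62 for Uqcrb, 0.58 for Atp5mpl, 0.50 for Ndufab1, 0.65 for Ndufb4, 0.72 for Ndufa5 and 0.55 for Uqcr11. Of the other genes of respiration on the fixed lists, the same test called Sdhaf1, which assembles complex II (1.24), the complex I assembly factors Ndufaf4 (0.79) and Ndufaf8 (0.50), the mitochondrial RNA factor Fastkd5 (-0.73) and the single-stranded DNA binding protein Ssbp1 (0.43).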

How the results depend on the processing

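The groups hold 3 libraries each, and calls between genotypes are close to the threshold. The share of all genes called moved with the setting as well. Over the leave-outs 3.39% to 8.17% of all genes were higher on Day 3 and 1.32% to 5.47% lower on Day 5. In the interaction 0.995% to 4.94% were higher. For Il6-/- versus WT on Day 3 the count of higher subunits (11) became 6 with upper-quartile and 5 with total-count scaling, 19 with a transcript length offset, 21 with only the 6 libraries compared, 0 at 2-fold and 2 among genes without copies or overlap, and ranged from 2 to 15 over the leave-outs. On Day 5 the count of lower subunits (3) became 1 with RLE scaling, 0 with total-count scaling, 10 without the low-count filter, 0 with only the 6 libraries compared, 6 with DESeq2, 0 at 2-fold and 0 without copies or overlap, and ranged from 0 to 19, and its median became -0.070 with the length offset. For the interaction the count (7) became 15 without the filter, 18 with DESeq2, 0 at 2-fold and 1 without copies or overlap, ranging from 1 to 21, with a median of 0.17 with total-count scaling and of 0.19 to 0.31 over the leave-outs. In WT between the days the rises (14) became 28 with upper-quartile scaling, 7 with the length offset, 0 at 2-fold and 6 without copies or overlap, the falls (30) became 52, 0 and 16 under the last 3, and the median became 0.10 with upper-quartile scaling, -0.17 without the filter and -0.32 with the length offset. In Il6-/- the rises (5) became 11 with upper-quartile scaling, 3 with the length offset and 0 at 2-fold, the falls (61) became 36 with upper-quartile scaling, 5 at 2-fold and 29 without copies or overlap, and the median became -0.16, -0.24 and -0.56 with upper-quartile scaling, total-count scaling and the length offset. The restriction to genes without copies or overlap was chosen after seeing the data and tests fewer genes. Of all genes, higher on Day 3 were 5.83% with upper-quartile scaling, 7.94% with the length offset and 11.7% with 6 libraries. Lower on Day 5 were 5.89% without the filter and 5.10% with DESeq2. Higher in the interaction were 5.26% and 5.10%. In WT 39.7% rose with upper-quartile scaling and 29.3% fell with the length offset. In Il6-/- 41.4% rose and 22.3% fell with upper-quartile scaling.

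The replicate block gave 23 higher subunits on Day 3, 11 lower on Day 5 and 20 higher in the interaction. Of all genes 10.9%, 6.30% and 6.24% were called that way. Same-numbered libraries correlated above 0.1 on Day 5 alone. With the length offset the WT changes of Atp5l, Cox6c, Cox7b, Ndufa1, Ndufa2, Ndufa3 and Ndufb1 became -0.064, -0.22, -0.0040, -0.032, -0.0017, -0.13 and -0.048, and that of Ndufa1 in Il6-/- -0.068. With upper-quartile scaling Ndufa8 in WT became 0.013 and Atp5d, Ndufa11 and Ndufb11 in Il6-/- became 0.032, 0.034 and 0.0073. The causes were not tested. Scaling without the mitochondrial ribosomal RNA and tRNA rows changed no count by more than 1.5 times. The effect of leaving out single mitochondrially encoded subunits was not run, as these are not analysed here.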

Other observations

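The genes of the mitochondrial ribosome, which makes the mitochondrially encoded subunits, were looked at after the results above were seen. Of 78 rows starting Mrpl or Mrps, 32 were higher in Il6-/- than in WT on Day 3 and 0 lower (50 and 0 at an unadjusted p under 0.05), with a median log2 fold change of 0.24. On Day 5, 0 were higher and 1 lower by edgeR (2 and 10 at an unadjusted p under 0.05), with a median of -0.04, and 12 were called higher and 0 lower in the interaction (38 and 0 at an unadjusted p under 0.05). Between the days 52 fell and 3 rose in WT, and 70 fell and 1 rose in Il6-/-, with medians of -0.36 and -0.64. These values stand beside 7.52%, 3.35%, 3.12%, 27.1% and 30.1% of all genes called in the direction of the larger count.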
